A study of Mus musculus and Homo sapiens with 28 samples.

Results

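TMEM37, KLHL14, KCNJ16, MAP2K6, PALM3, PDZK1, CLDN2 and A4GALT were grouped as renal epithelial genes. The proximal tubule and epithelial state lists used below held 0 of them. That of loop, distal tubule and collecting duct held 1 (KCNJ16). All 8 genes were read well above the floor in untreated 786-O cells and lower after an inhibitor of the checkpoint kinase CHK1. They are 8 of the 29353 genes with a varying value among 56269 rows of the human table. The genes were chosen by these very values in these 4 libraries, so their own differences are given as a description, without a test. The choice had no numeric limit, and A4GALT, with the smallest drop, stands well apart from the other members. Tests are given for genes of the same pathways, in these same 4 libraries, and for the mouse orthologs in tumours. The pathway lists were drawn up with earlier results of these data known. Only the tumour libraries did not enter the choice of the 8 genes.

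RNA was sequenced from 28 libraries. The human cells were 786-O, a long-established line from a clear cell carcinoma of the kidney, labelled wild type (WT). They were left untreated (2 libraries) or kept for 48 h in 25 nM of the CHK1 inhibitor (2 libraries). The design text speaks of 2 experiments, without saying which library belongs to which. The labels and the design text name the compound LY2606368, whereas the treatment protocol names LY2603618; which was given is not settled. The mouse tumours were of the renal carcinoma line Renca, placed under the skin of the back, and are labelled WT or SETD2 KD (a knockdown of the histone methyltransferase SETD2). These mice were untreated (7 WT and 6 SETD2 KD libraries) or received VE822, an inhibitor of ATR, the kinase upstream of CHK1, by oral gavage at 60 mg/kg on 5 days a week (6 WT and 5 SETD2 KD libraries). The labels leave out the strain and age of the mice, the way SETD2 was lowered and the number of clones. Whether libraries of a group come from separate cultures or animals is not stated either, so the p-values measure the spread between these libraries, which may be partly technical.

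The human libraries held 20834400 to 23956007 counts, recovered from the deposited values. All 10 renal carcinoma markers had counts, although CA9, the hypoxia-induced carbonic anhydrase, gave only 2 to 7 counts a library and NDUFA4L2 9 to 30. The summed level of these markers was 3625 and 3550 CPM (the count scaled to a fixed library total) in the untreated libraries and 2802 and 2736 CPM in the treated ones. The largest parts were VIM (1432 and 1437 CPM untreated, 1199 and 1066 treated) and KRT8 (862 and 854 untreated, 739 and 739 treated). These 2 genes also stand in the mesenchymal and epithelial lists used below. Markers of other cell types were low in sum: 0.63 to 1.54 CPM for the endothelial list, 4.34 to 6.51 CPM for the immune list and 4.94 to 19.4 CPM for the fibroblast list. Most of the immune sum was CSF1R, a receptor of macrophages (152 and 151 counts untreated, 91 and 127 treated), and most of the fibroblast sum was LUM, a matrix proteoglycan (142 and 399 against 62 and 147), while CD3E (T lymphocytes) and DCN (fibroblasts) were at 0 in all 4 libraries. The labelled knockdown was not visible in the mouse transcript: untreated tumours labelled SETD2 KD had a Setd2 rlog value of 10.81 ± 0.07 (SD, n = 6) against 10.83 ± 0.07 (SD, n = 7) in those labelled WT. Genotype groups are therefore named by their labels throughout.

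The tubule of the kidney reabsorbs salt, water and solutes through transporters in the apical brush border, channels and pumps in the basolateral membrane, and selective pores in the tight junctions between cells. CLDN2 forms the cation and water pore of the leaky proximal tight junction. KCNJ16 (Kir5.1) is an inward rectifier subunit that makes basolateral potassium channels with a partner such as KCNJ10 or KCNJ15, and PDZK1 is a PDZ scaffold that binds apical transporters. A4GALT is the galactosyltransferase that makes the glycosphingolipid Gb3, MAP2K6 is the kinase that activates p38 MAP kinases, PALM3 belongs to the lipid-anchored paralemmins, KLHL14 is a kelch-like protein, and TMEM37 resembles the gamma subunits of voltage-gated calcium channels. The transcription factors HNF4A, PAX2 and PAX8 are known for setting tubule identity.

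Promoter sequences of the mouse orthologs are shown because their transcripts were measured in samples that did not enter the choice, and because they differ in make-up. Windows around a RefSeq start (GRCm38.p6), with 250 bases upstream, were examined for 7 of the 8 orthologs. Klhl14 was left out, so the motif shares below do not cover it. The sequences below run 5′ to 3′ on the gene's strand and hold only bases upstream of the first RefSeq start and of the GENCODE gene, except for Tmem37, where 30 bases around 1 match are given. Kcnj16 lies at chr11:110967783-110968032 (plus strand), and its capitals mark GTTAAT, the core of the HNF1 motif, read on the other strand. Cldn2 lies at chrX:139800558-139800807 (plus strand), and its capitals mark TATAAA, the TATA box. Tmem37 (chr1:120073865-120073894, minus strand) and A4galt (chr15:83251775-83251979, minus strand) have TGANTCA, the AP-1 motif, in capitals.
Kcnj16: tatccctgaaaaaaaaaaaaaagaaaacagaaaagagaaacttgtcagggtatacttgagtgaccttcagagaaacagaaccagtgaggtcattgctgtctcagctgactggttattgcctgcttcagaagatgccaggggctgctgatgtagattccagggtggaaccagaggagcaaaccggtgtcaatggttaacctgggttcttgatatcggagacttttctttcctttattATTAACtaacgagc
Cldn2: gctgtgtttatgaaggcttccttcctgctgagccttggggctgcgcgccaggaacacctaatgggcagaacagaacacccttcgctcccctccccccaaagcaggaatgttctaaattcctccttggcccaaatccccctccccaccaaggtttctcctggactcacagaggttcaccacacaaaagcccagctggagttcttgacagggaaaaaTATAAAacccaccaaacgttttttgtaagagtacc
Tmem37: cagggcgctgcTGAGTCAgcgtaacccgag
A4galt: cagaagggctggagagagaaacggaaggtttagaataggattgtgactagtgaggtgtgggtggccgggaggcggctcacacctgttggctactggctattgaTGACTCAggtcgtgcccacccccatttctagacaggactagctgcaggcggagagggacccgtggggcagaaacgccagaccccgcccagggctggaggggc

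The windows fall into CpG-rich and CpG-poor ones. At their first starts Tmem37 had 22 CpG dinucleotides, A4galt 19, and Palm3 and Map2k6 14 each, against 5 in Cldn2, 4 in Pdzk1 and 3 in Kcnj16; the median over all 32851 windows was 7. The HNF1 core GTTAAT, searched like every motif on both strands, was found in 1 of 7 first-start windows (Kcnj16, 14 bases before the start, at position -14), against 7.10% of all windows. The HNF4 core AAAGTCC was found in 1 of 7 (Pdzk1, at 16 after the start), against 4.21%. AP-1 (TGANTCA) was found in 3 of 7, at -103 in Tmem37, -147 in A4galt and -232 in Map2k6, against 7.81%. The TATA box was found in 1 of 7 (Cldn2, at -35) against 13.6%, the GC box GGGCGG in 4 of 7 against 35.7%, CCAAT in 1 of 7 against 37.4% and the E box CANNTG in 6 of 7 against 72.3%. No match to the E2F motifs TTTCCCGC and TTTGGCGC or to the PAX core GTCACGC lay in these 7 windows. These are matches of letters and do not show binding.

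Each of the 8 genes was lower in both treated libraries than in both untreated ones. The same held for 6843 of 29353 genes (23.3%), and since the choice used these libraries nothing is read from the comparison. Values are given on the deposited variance-stabilised scale, a log2-like scale on which a count of 0 lies at 2.47. CPM ratios come from the recovered counts pooled over the 2 libraries of a group, with a 95% exact binomial interval. This interval covers counting error only and leaves out the spread between replicates, so it is too narrow. Replicates differed by far more than counting noise (chi-square per degree of freedom 14.7 and 14.9). Reads were not marked by molecule either. In bulk RNA fewer cells expressing a gene and less RNA per cell cannot be told apart. The variance-stabilised scale compresses low counts, so the CPM ratio is the larger of both measures for the low genes. The median difference over all tested genes was 0.08.

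**Figure D1:**
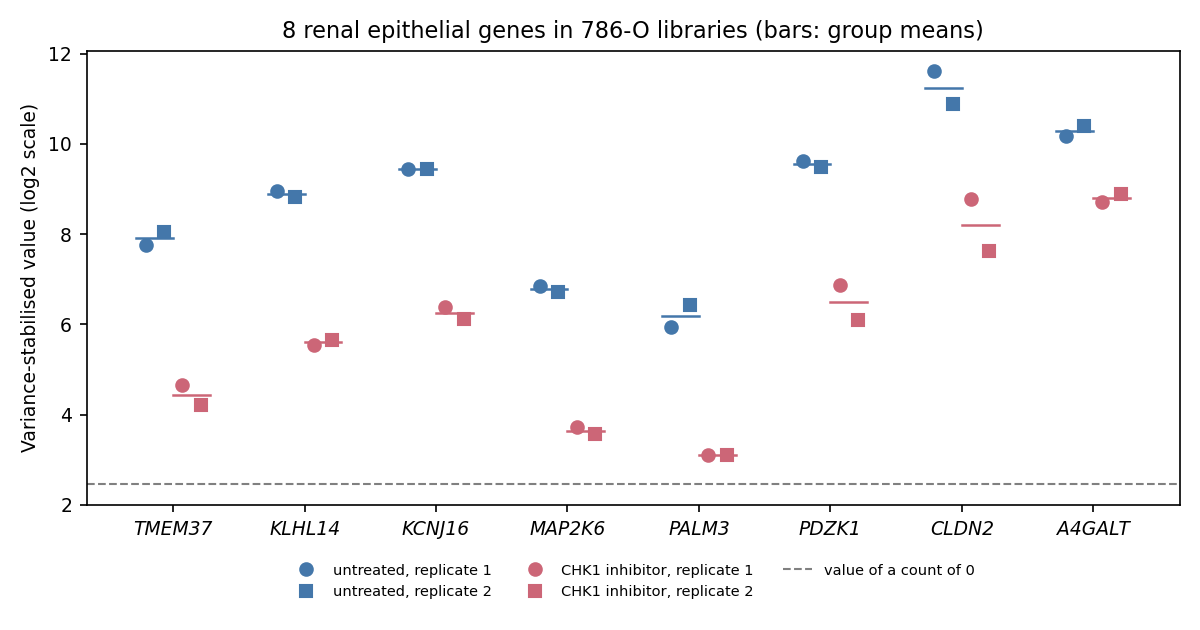
Variance-stabilised value (log2 scale, y axis) of the 8 genes in the 4 786-O libraries; circles are replicate 1, squares replicate 2, blue untreated and red CHK1 inhibitor, bars are group means and the dashed line is the value of a count of 0 (2.47). Both red points lie below both blue points for each gene, and those of PALM3 (3.11 and 3.12) lie nearest to the dashed line.

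Among the genes of transport and junctions, CLDN2 gave 3212 and 1940 counts in untreated replicates 1 and 2, and 385 and 163 counts in the treated ones. Its mean variance-stabilised value was 11.24 ± 0.52 untreated and 8.20 ± 0.81 treated (SD of 2 libraries each), which differ by -3.04, and its CPM was 8.38 times higher untreated (7.67 to 9.17). CLDN2 was the member with the widest spread between replicates: replicate 2 was the lower one in both groups, and the gap between the treated replicates was 1.15. Between libraries of the same number the difference was -2.84 for replicate 1 and -3.25 for replicate 2. The CPM ratios of these pairs, 7.47 and 10.6, both lay outside the counting interval.

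PDZK1 gave 798 and 736 counts untreated and 97 and 51 counts treated. The variance-stabilised mean was 9.55 ± 0.09 (SD, n = 2) untreated and 6.50 ± 0.55 (SD, n = 2) treated, a difference of -3.06, and the CPM ratio was 9.24 (7.80 to 11). The untreated replicates lay close together, while treated replicate 2 was 0.78 below treated replicate 1. KCNJ16 gave 713 and 711 counts untreated and 66 and 52 treated, with a difference of -3.19 and a CPM ratio of 10.8 (8.91 to 13.1). Its untreated values, 9.46 and 9.44, differed by only 0.01, so the whole spread of this channel subunit lay in the treated group (6.39 and 6.13).

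Of the signalling and adaptor genes, MAP2K6 gave 108 and 99 counts untreated and 4 and 3 counts treated. Its difference was -3.14 and its CPM ratio 26.4, with a counting interval of 12.6 to 66.4. The kinase was thus close to the floor in both treated libraries, 1.25 and 1.11 above the value of a count of 0. KLHL14 gave 503 and 462 counts untreated and 33 and 35 treated, a difference of -3.29 and a CPM ratio of 12.6 (9.88 to 16.4). It was the most even of the genes over replicates, with gaps of 0.13 and 0.10 within the groups.

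PALM3 gave 53 and 79 counts untreated and a single count (1) in each treated library. The difference on the variance-stabilised scale was -3.08, whereas the CPM ratio was 58.8 with a counting interval of 16 to 491, too wide to place PALM3 before MAP2K6 or TMEM37. TMEM37 gave 212 and 266 counts untreated and 14 and 8 treated, a difference of -3.47 and a CPM ratio of 19.4 (12.6 to 31.2). Between same-numbered libraries its ratio was 13.6 and 29.5, with the lowest treated value in replicate 2.

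A4GALT, the Gb3 synthase, stood apart from the other 7 genes. It gave 1182 and 1384 counts untreated and 369 and 403 counts treated, so that a clear signal was left under the inhibitor. The variance-stabilised mean was 10.28 ± 0.15 untreated and 8.80 ± 0.12 treated (SD of 2 libraries each), which differ by -1.49, and the CPM ratio was 2.96 (2.73 to 3.21). The interval of this ratio does not reach that of any other member. By size of the drop A4GALT ranked 323 of 29353 genes, while the other 7 were all among the 12 largest drops.

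**Figure D2:**
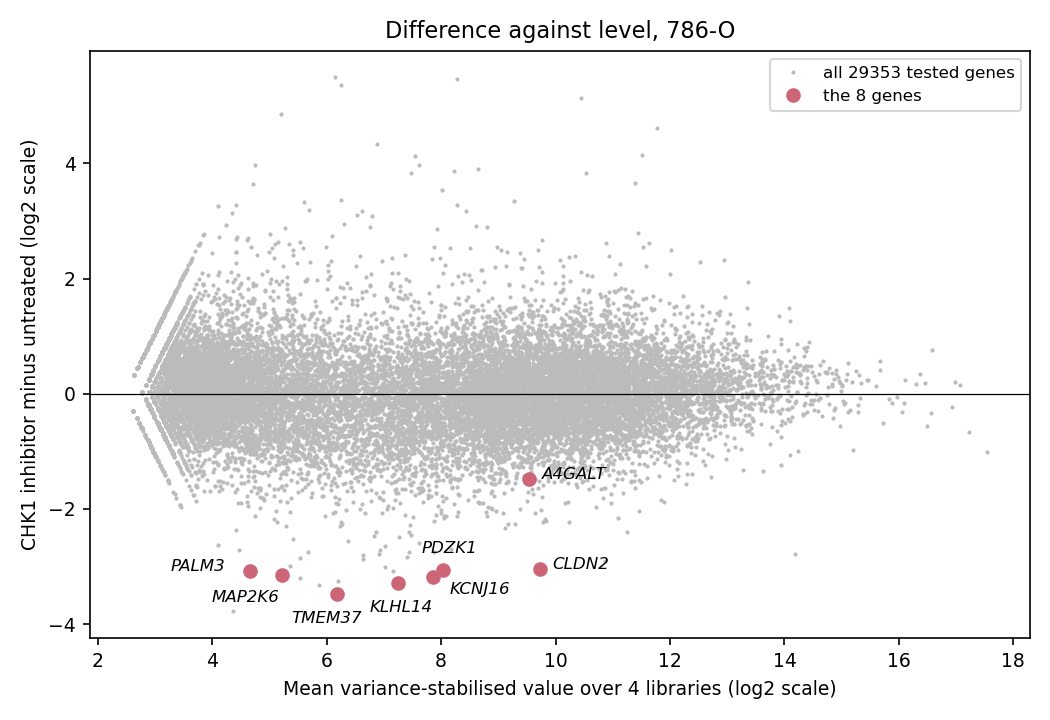
Difference between treated and untreated 786-O libraries (log2 scale, y axis) against the mean variance-stabilised value over the 4 libraries (x axis) for all 29353 tested genes (grey) and the 8 genes (red). The red points other than A4GALT lie between -3.47 and -3.04 at the lower edge of the cloud, and A4GALT lies at -1.49.

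The 5 genes among the 12 largest drops that are not members were CH507-513H4.4, RP1-60O19.1, SEMA5B, VAV3 and RP11-54O7.3. CH507-513H4.4, which ranked 1, rested on a single library (1065 counts in untreated replicate 2 and 0 counts in the other 3). SEMA5B, a semaphorin, gave 211 and 235 counts untreated and 14 and 11 treated, and VAV3, a guanine nucleotide exchange factor, gave 74 and 238 against 5 and 6. Next in rank came the organic anion transporter SLCO4C1 (rank 13, difference -3.0), the matrix protein TNR (rank 14, -2.98) and the cadherin CDH6 (rank 15, -2.90). By Euclidean distance over the 4 libraries, the genes nearest to the mean profile of the 8 members were RP11-54O7.3 (distance 0.50), the potassium channel KCNJ15 (0.62), the glyoxylate-pathway aldolase HOGA1 (0.63), ARHGAP28, a GTPase-activating protein (0.65), and the kinase SGK2 (0.70). This nearness is over 4 libraries of 2 groups and is a description.

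Genes around the 8 members were tested with limma over all 29353 genes, with Benjamini-Hochberg adjustment and a threshold of 0.05. Of all genes 6.16% were called lower and 7.05% higher, the shares to set beside every count below. They are low for lists of well-read genes. A fit to only the 14639 genes with at least 10 counts in 2 libraries called 3330 lower and 3219 higher. The p38 list and the list that checks the drug held 0 genes with fewer than 10 counts in sum, the glycosphingolipid list 2. List shares above 6.16% or 7.05% are therefore not read as an excess. The members themselves are left out of all counts. Of the tested genes 11236 had fewer than 10 counts over the 4 libraries together, and a single count in 1 treated library is by itself a difference of 0.32. Medians of lists are therefore given over all tested genes and over those with at least 10 counts in sum, a split chosen after the data were seen; over all genes these medians were 0.08 and 0.01. These calls lean on the variance trend that limma fits across genes: of the 45 called genes that the rule for named genes selects, none (0) kept an adjusted p under 0.05 without that trend (0.0564 to 0.0932, with 8654 genes at an unadjusted p under 0.05). None (0) did so without untreated replicate 1 (0.127 to 0.222) or untreated replicate 2 (0.137 to 0.237), 14 did without treated replicate 1 (up to 0.198) and 15 without treated replicate 2 (up to 0.231). With voom on the recovered counts all 45 kept the call.

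Most genes of the tubule lists did not pass the test. In the proximal tubule list 4 of 32 tested genes (12.5%) fell and 2 (6.25%) rose, with a median difference of -0.07 (-0.25 over the 20 with at least 10 counts). CDH6, a cadherin of the developing and proximal tubule, gave 6252 and 4374 counts untreated and 750 and 470 treated, a fall of -2.90 ± 0.30 (SE; limma adjusted p = 0.0255). SLC17A3, an apical anion transporter, fell from 248 and 169 counts to 45 and 27 (-2.07 ± 0.30, adjusted p = 0.0368), and SLC13A3, a dicarboxylate transporter, rose (1.07 ± 0.19, adjusted p = 0.0495). In the list of loop, distal tubule and collecting duct, 2 of 33 genes (6.06%) fell and 2 (6.06%) rose. Of these 33 genes 19 had fewer than 10 counts, 8 of them a single count, so the median of 0.32 is that of genes at the floor; over the other 14 it was 0.06. SCNN1A, the alpha subunit of the epithelial sodium channel, fell (-2.02 ± 0.35, adjusted p = 0.0474), as did FXYD2, the gamma subunit of the sodium pump (-1.43 ± 0.23, adjusted p = 0.0423), whereas WNK4, a kinase that controls distal salt transport, rose (2.08 ± 0.15, adjusted p = 0.0232).

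Few of the tubule transcription factors passed the test, beside 6.16% of all genes that fell and 7.05% that rose. Of 29 tested, 3 fell (10.3%, PAX2 and POU3F3 among them) and 2 rose (HOXA11 and HNF4A, 6.90%), with a median of 0.11, which turned to -0.25 over the 22 genes with at least 10 counts. PAX2 gave 588 and 785 counts untreated and 164 and 148 treated, and fell by 1.84 ± 0.17 (SE; limma adjusted p = 0.0246). PAX8 kept a high level, with 8320 and 7757 counts untreated and 5398 and 6393 treated (difference -0.23 ± 0.12, adjusted p = 0.335), and LHX1, with 920 and 614 against 747 and 565 counts, had a difference of 0.01 ± 0.26 (adjusted p = 0.977). HNF4A was called higher on 0 and 0 counts against 3 and 5, at the limit of detection, and lost the call in 4 of 6 alternatives that kept all libraries. HOXA11, a homeobox factor of kidney development, rose by 1.30 ± 0.11 (adjusted p = 0.0232).

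**Figure D3:**
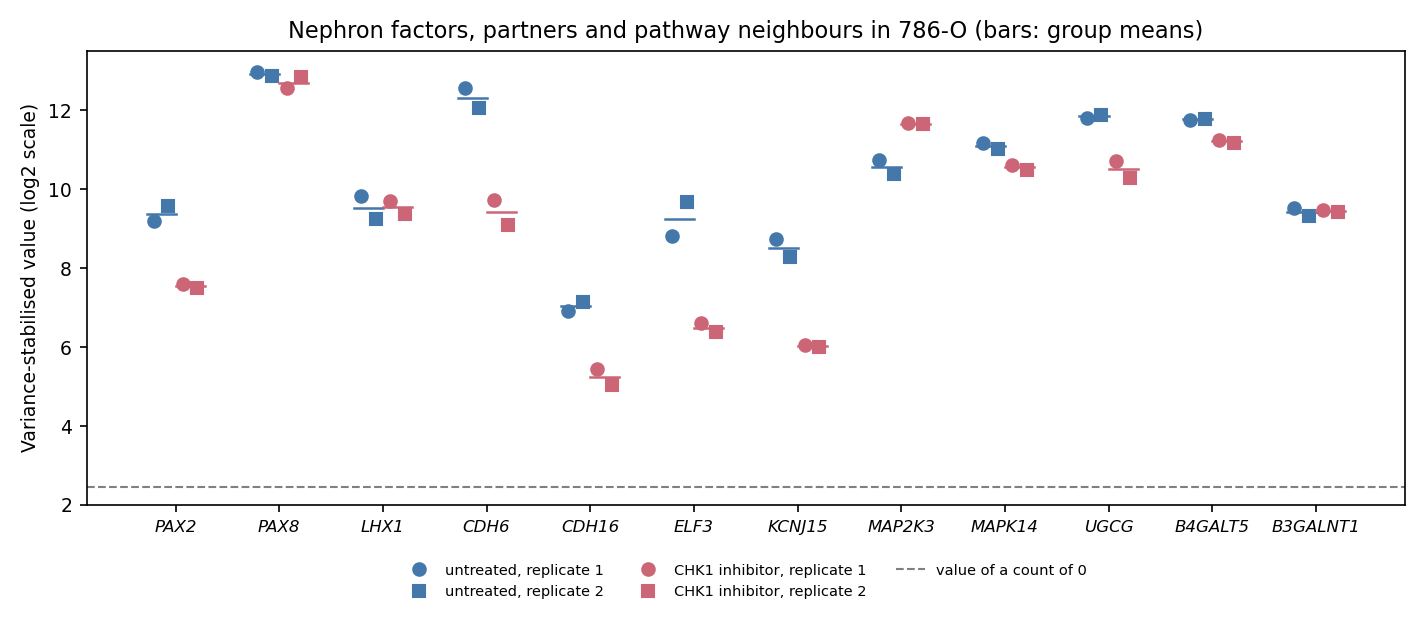
Variance-stabilised value (log2 scale, y axis) of tubule factors, partners and pathway genes in the 4 786-O libraries; symbols, colours, bars and dashed line as in the plot of the 8 genes. PAX2, CDH6, CDH16, ELF3, KCNJ15 and UGCG have both red points below both blue points by more than 1, MAP2K3 has both above, and LHX1 and B3GALNT1 overlap.

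Genes of the epithelial state included some of the largest falls outside the members. Of 29 tested, 4 fell (13.8%) and 0 rose in limma, with 3 higher at an unadjusted p under 0.05, and the median was -0.15 (-0.18 over the 22 with at least 10 counts). CD24, a surface glycoprotein of epithelial cells, fell from 52471 and 48548 counts to 8194 and 4862 (-2.78 ± 0.27, adjusted p = 0.0246), and ELF3, an epithelial ETS factor, from 451 and 834 to 79 and 63 (-2.74 ± 0.34, adjusted p = 0.0296). CDH16, the kidney-specific cadherin, went from 114 and 136 counts to 30 and 20 (-1.79 ± 0.21, adjusted p = 0.0280), and KRT19 was the other gene that fell. CDH1, the epithelial cadherin, was read at 0 to 2 counts in every library. Of 18 mesenchymal genes 1 fell and 2 rose: FN1, fibronectin, fell by 1.02 ± 0.12 (adjusted p = 0.0279, but -0.38 with adjusted p = 0.427 after quantile normalisation), while SNAI2, a repressor of epithelial genes, rose by 2.49 ± 0.23 (adjusted p = 0.0245). VIM, vimentin, had a difference of -0.29 ± 0.08 (adjusted p = 0.0918), under the threshold in 5 of 8 alternatives that kept all libraries.

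Around CLDN2, 3 of 35 other claudin and tight junction genes (8.57%) fell and 2 (5.71%) rose, with a median of -0.27 (-0.28 over the 29 with at least 10 counts). The 3 were the junction proteins CGNL1 (-1.53 ± 0.17, adjusted p = 0.0269), PATJ (-1.29 ± 0.12, adjusted p = 0.0246) and TJP1 (-0.47). CLDN15, which like CLDN2 forms cation pores, rose from 168 and 174 counts to 424 and 492 (1.58 ± 0.13, adjusted p = 0.0232). CLDN1, a sealing claudin, gave 1616 and 1723 counts untreated and 2335 and 3281 treated; its difference of 0.95 ± 0.21 had an adjusted p of 0.0707, and passed in 5 of 8 alternatives that kept all libraries. CLDN10, another claudin of paracellular pores in the tubule, was read at 0 to 2 counts.

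Around KCNJ16, 1 of 17 other genes of inward rectifier channels (5.88%) fell and 2 (11.8%) rose. Here 10 of the 17 genes had fewer than 10 counts, and the median of 0.32 is the value of a single count; over the other 7 genes it was 0.02. The 1 that fell was KCNJ15 (Kir4.2), a channel subunit that can pair with KCNJ16, from 428 and 311 counts to 50 and 47 (-2.48 ± 0.20, adjusted p = 0.0232). KCNJ10 (Kir4.1), the usual tubule partner, gave 1 count in all 4 libraries together, so no comparison was possible. ABCC9, a regulatory subunit of ATP-sensitive potassium channels, rose from 129 and 83 counts to 489 and 503 (2.36 ± 0.23, adjusted p = 0.0251). KCNJ2, looked up after the values were seen because its mouse ortholog neighbours Kcnj16, had a difference of -0.41 ± 0.31 (adjusted p = 0.452).

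Around PDZK1, 0 of 21 other genes of the brush border scaffold fell in limma, with 4 lower at an unadjusted p under 0.05, and 1 rose. The 1 was ABCC2, an apical efflux pump, with 31 and 40 counts untreated and 70 and 73 treated (1.04 ± 0.17, adjusted p = 0.0425, and 0.0775 on the log2(CPM + 1) scale). PDZK1IP1, the small membrane protein that binds PDZK1, gave 830 and 612 counts untreated and 628 and 519 treated (-0.10 ± 0.20, adjusted p = 0.754). SLC9A3R1 (NHERF1), the scaffold closest to PDZK1 in function, had a difference of -0.43 ± 0.19 (adjusted p = 0.237).

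In the p38 cascade around MAP2K6 genes passed in both directions: 8 of 35 other genes (22.9%) fell and 5 (14.3%) rose, with a median of -0.20. MAP2K3, the paralog that shares the activation of p38 with MAP2K6, rose from 1761 and 1378 counts to 2963 and 2775 (1.10 ± 0.15, adjusted p = 0.0321). MAPK14, p38 alpha itself, fell by 0.54 ± 0.09 (adjusted p = 0.0474). The upstream kinases MAP3K6 (-1.18 ± 0.18, adjusted p = 0.0390) and MAP3K5 (-1.02 ± 0.10, adjusted p = 0.0254) fell, and DUSP1, a phosphatase that inactivates p38, rose from 432 and 361 counts to 1584 and 1598 (2.20 ± 0.12, adjusted p = 0.0232).

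The glycosphingolipid list around A4GALT had the highest share of falls among the lists, 12 of 35 (34.3%), with 3 (8.57%) higher and a median of -0.28 (-0.30 over the 33 with at least 10 counts). UGCG, which makes the glucosylceramide from which Gb3 is built, fell from 3651 and 3920 counts to 1516 and 1076 (-1.34 ± 0.18, adjusted p = 0.0316), and B4GALT5, which makes the lactosylceramide that A4GALT uses, fell by 0.56 ± 0.06 (adjusted p = 0.0269). GAL3ST1, the sulfotransferase of sulfatide synthesis, fell from 7471 and 7672 counts to 1756 and 1765 (-1.88 ± 0.06, adjusted p = 0.0232), and ST3GAL5, which turns lactosylceramide into the ganglioside GM3, by 1.84 ± 0.25 (adjusted p = 0.0331). B3GALNT1, which extends Gb3, gave 748 and 655 counts untreated and 635 and 589 treated (0.03 ± 0.10, adjusted p = 0.892). ST6GALNAC5, a ganglioside sialyltransferase, rose from 3 and 2 counts to 22 and 35 (1.99 ± 0.27, adjusted p = 0.0327). Without a left-out library the count of falls was 12 to 15 in 7 of 8 alternatives and 0 without the variance trend; it was 0 to 7 with 1 library left out.

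The other families gave fewer calls in 1 direction. Of 4 other paralemmins 0 passed in limma (1 at an unadjusted p under 0.05, higher); PALM gave 1 to 7 counts and PALMD 0 to 3. Of 20 calcium channel genes related to TMEM37, 2 fell (CACNB3, -1.25 ± 0.09, adjusted p = 0.0232, and CACNA2D1, -0.76 ± 0.10, adjusted p = 0.0328) and 1 rose (CACNA2D2, on 4 and 2 counts against 16 and 13). Of 34 other kelch-like genes 4 fell (11.8%), led by KLHL13 (-1.70 ± 0.15, adjusted p = 0.0241) and KLHL22 (-1.04 ± 0.11, adjusted p = 0.0254), and 6 rose (17.6%), led by KLHL21, an adaptor in mitosis (1.80 ± 0.09, adjusted p = 0.0232).

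As a check of the drug, 5 of 23 genes of the CHK1 pathway, the p53 response and the cell cycle fell (21.7%) and 4 rose (17.4%). The other 14, several targets of p53 among them, did not pass, so the list is not read as a p53 response. GADD45A, a stress gene of the p53 response, rose from 753 and 659 counts to 10435 and 11183 (4.14 ± 0.11, adjusted p = 0.0232). CHEK2, the sister checkpoint kinase, fell by 1.52 ± 0.10 (adjusted p = 0.0232) and CLSPN, the adaptor for CHK1 activation, by 0.82 ± 0.09 (adjusted p = 0.0261).

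**Figure D4:**
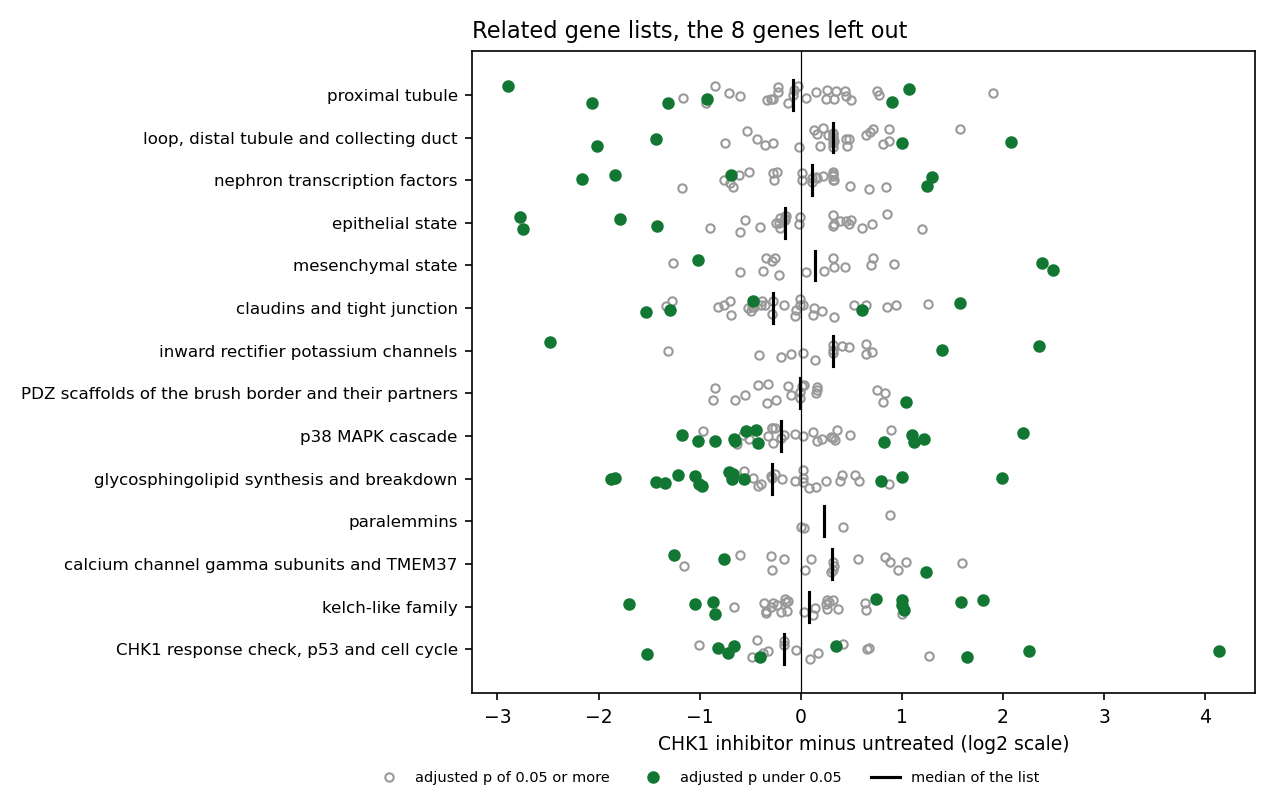
Difference between treated and untreated 786-O libraries (log2 scale, x axis) for each tested gene of 14 lists (rows), with the 8 members left out; filled points have a limma adjusted p under 0.05, and the black bar is the median of the list. The medians lie between -0.28 (glycosphingolipids) and 0.32, the value of genes with a single count, and filled points lie on both sides of 0 except in the epithelial, paralemmin and PDZ scaffold rows.

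The mouse orthologs were then compared in the Renca tumours, which did not enter the choice. Under the ATR inhibitor they did not fall. Of 7 tested, 4 rose in tumours labelled WT (17.2% of all 15916 tested genes rose and 17.5% fell) and 2 rose in those labelled SETD2 KD (10.6% rose and 11.6% fell); 0 fell in either. The compound, dose, species and setting all differ from the 786-O experiment, so the values stand side by side only. Pdzk1 had a mean rlog (regularised log2 value) of 1.59 and was under the minimum of 3 for testing.

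Cldn2 had the largest difference among the orthologs that rose. In tumours labelled WT its rlog was 7.56, 7.85 and 8.29 (lowest, median and highest of 7) untreated and 8.81, 9.13 and 9.30 (of 6) with VE822, with no overlap (6.25% of all genes lay higher without overlap and 7.84% lower). The difference was 1.17 ± 0.36 (SE; limma adjusted p = 0.0136). In tumours labelled SETD2 KD it was 7.62, 8.08 and 8.57 (of 6) untreated, and 9.96, 9.54, 9.76, 6.49 and 9.5 in the 5 treated libraries. Replicate 4 of the treated group was thus below every untreated library, while the other 4 were above all of them. With it the difference was 1.01 ± 0.39 (adjusted p = 0.0645) and without it 1.65 (adjusted p = 9.24e-08).

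Tmem37 in tumours labelled WT was 10.62, 10.79 and 10.97 (lowest, median and highest of 7) untreated and 11.03, 11.40 and 11.71 (of 6) with VE822, again with no overlap. The difference of 0.62 ± 0.15 (limma adjusted p = 0.00234) held its call in all 33 alternatives. In tumours labelled SETD2 KD Tmem37 was 10.78, 10.84 and 11.09 (of 6) untreated and 11.61, 11.20, 11.16, 10.17 and 11.12 treated, with replicate 4 again the lowest. The difference was 0.18 ± 0.16 (adjusted p = 0.458), and 0.41 (adjusted p = 0.00925) without replicate 4.

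A4galt passed under both labels, but with the WT label not in every setting. With the WT label it was 6.06, 6.34 and 6.73 (lowest, median and highest of 7) untreated and 6.31, 6.76 and 7.63 (of 6) treated, overlapping, with a difference of 0.48 ± 0.15 (limma adjusted p = 0.0155). That call was lost after quantile normalisation, with the level of skeletal muscle markers as a covariate (0.37, adjusted p = 0.111), and without the 4 libraries rich in muscle markers and SETD2 KD VE822 replicate 4 (0.15, adjusted p = 0.431). With the SETD2 KD label it was 6.02, 6.27 and 6.45 (of 6) untreated and 6.81, 6.60, 6.71, 6.96 and 6.89 treated, without overlap (5.30% of all genes lay higher without overlap and 5.95% lower), a difference of 0.55 ± 0.16 (adjusted p = 0.0165) that held in all 33 alternatives.

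Palm3 also passed under both labels, with differences of 0.35 ± 0.12 (WT, limma adjusted p = 0.0241) and 0.41 ± 0.13 (SETD2 KD, adjusted p = 0.0245). The groups overlapped: 7.36, 7.65 and 7.81 (of 7) untreated against 7.76, 7.92 and 8.32 (of 6) with the WT label, and 7.14, 7.55 and 7.82 (of 6) against 7.79, 8.05, 7.54, 8.23 and 8.0 with the SETD2 KD label. The WT call was lost without WT untreated replicate 4, WT VE822 replicate 1 or WT VE822 replicate 2 (adjusted p up to 0.0681). The SETD2 KD call was lost without untreated replicate 2 or 3, or VE822 replicate 2, 4 or 5 (up to 0.0670). By the annotation the end of Palm3 overlaps Il27ra on the opposite strand, but only at its last bases. Palm3 spans 8825 bases and ends at chr8:84030295, and Il27ra begins at chr8:84030294. The labels do not say whether counting used strand, so reads over this short overlap may not be separable.

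**Figure D5:**
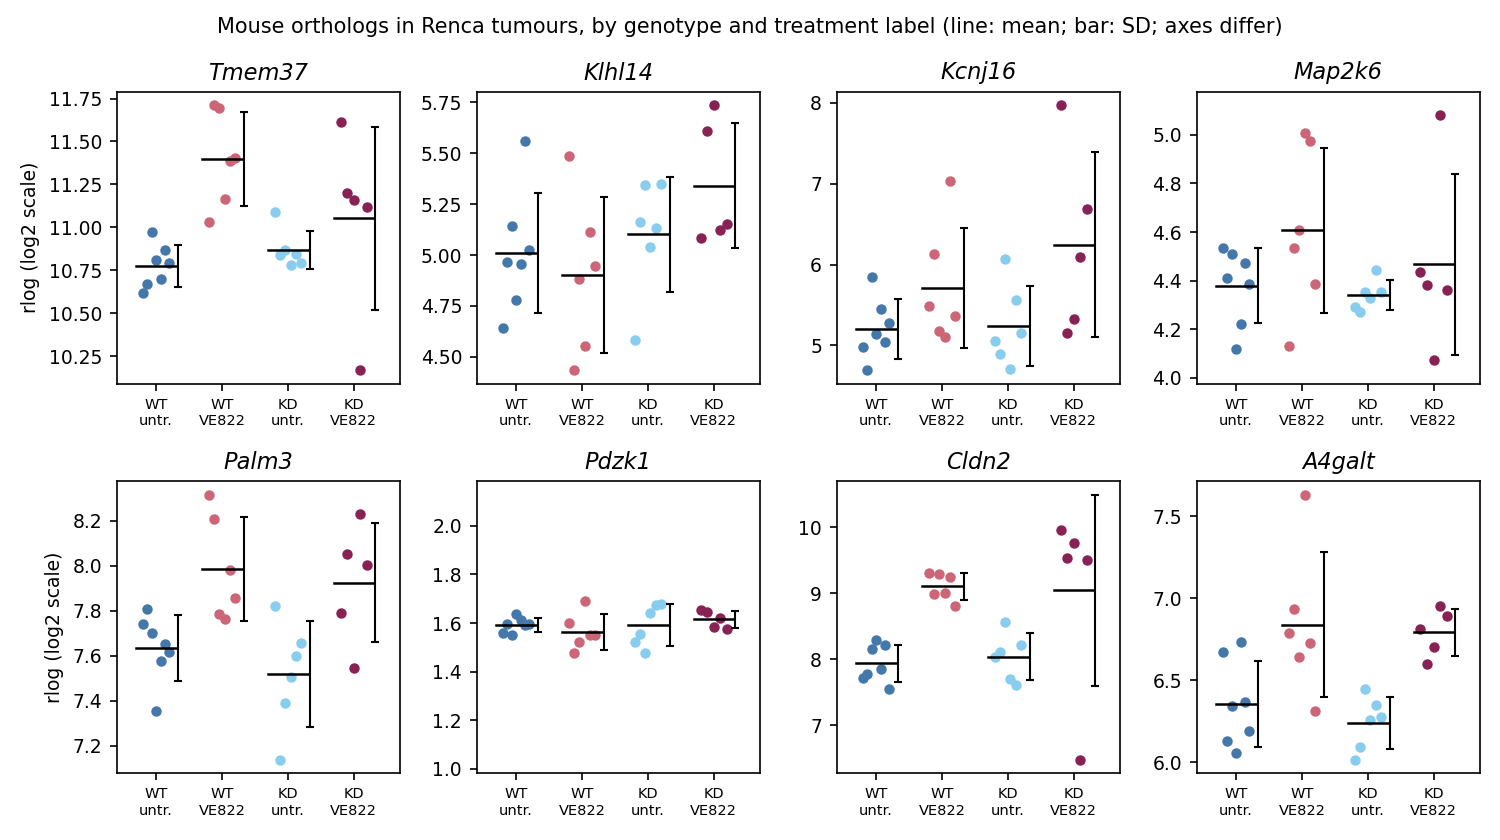
rlog value (log2 scale, y axis, which differs between panels) of the 8 mouse orthologs in Renca tumours labelled WT or SETD2 KD, untreated or given VE822; points are libraries, lines means and bars SD. Tmem37 and Cldn2 do not overlap between the WT groups, 1 treated SETD2 KD library lies far below the others for Cldn2 (6.49), and Pdzk1 stays between 1.48 and 1.69 throughout.

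The remaining orthologs did not pass. Kcnj16 had differences of 0.51 ± 0.36 (WT label, limma adjusted p = 0.290) and 1.01 ± 0.40 (SETD2 KD label, adjusted p = 0.0699), and 1 treated library of each label stood high (7.04 and 7.97). Without WT VE822 replicate 5, SETD2 KD untreated replicate 3, or SETD2 KD VE822 replicate 2 or 3, the second of these passed (adjusted p down to 0.0279). The high libraries carried much of both differences: without SETD2 KD VE822 replicate 1 the difference was 0.58 (adjusted p = 0.246), and without WT VE822 replicate 5 the WT difference was 0.25 (adjusted p = 0.624). Map2k6 differed by 0.23 ± 0.13 (adjusted p = 0.195) and 0.13 ± 0.15 (adjusted p = 0.587), and Klhl14 by -0.11 ± 0.17 (adjusted p = 0.652) and 0.24 ± 0.18 (adjusted p = 0.383). Between untreated tumours of the 2 labels 0 of 7 orthologs and 0 of 15916 genes differed by limma (0 and 512 at an unadjusted p under 0.05), and the VE822 difference differed between labels for 0 of 7 orthologs and 0 of 15916 genes (0 and 1452 at an unadjusted p under 0.05; lowest adjusted p of an ortholog 0.555, Tmem37).

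Cell type markers were compared between VE822 and untreated tumours as a description, without a test. A change in cell shares cannot be told apart from a change of the marker transcripts within cells. The renal carcinoma markers include Pax2 and Pax8. The mean rlog of 6 renal carcinoma markers was 10.21 to 10.33 in untreated and 9.55 to 9.92 in treated tumours labelled WT, and 10.21 to 10.30 against 9.76 to 10.07 with the SETD2 KD label. The 4 endothelial markers were 8.55 to 9.51 untreated and 8.87 to 10.07 treated with the WT label, and the 6 fibroblast markers 8.45 to 10.79 and 9.91 to 12.89. With the SETD2 KD label the endothelial markers were 8.78 to 8.93 untreated and 8.94 to 10.07 treated and the 5 immune markers 8.07 to 8.29 and 8.37 to 8.67, both without overlap, while the fibroblast markers were 8.68 to 10.43 and 9.34 to 10.79. The immune markers with the WT label were 8.01 to 8.33 and 8.09 to 8.70. The 6 adipocyte markers ranged widely in each group, from 4.46 to 7.62 over all libraries, with 7.62 and 7.21 in SETD2 KD VE822 replicates 2 and 4. Skeletal muscle markers (12 genes) had a mean above 6 in WT untreated replicate 4 (6.49) and WT VE822 replicates 1 (8.70), 2 (7.03) and 4 (7.63), against 4.49 to 5.54 in the other libraries. With the muscle mean as a covariate, Tmem37 kept its WT call (0.70), while Cldn2 (1.07, adjusted p = 0.0587), A4galt (0.37, adjusted p = 0.111) and Palm3 (0.30, adjusted p = 0.104) lost the call. Without those 4 libraries and SETD2 KD VE822 replicate 4, a setting chosen after the data were seen, the WT differences were 0.72 for Tmem37, 1.24 for Cldn2, 0.15 for A4galt (adjusted p = 0.431) and 0.19 for Palm3 (adjusted p = 0.265). The part of the fibroblast, endothelial, immune, adipocyte and carcinoma cell shares in these differences was not tested.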

How the data were processed

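RNA sequencing was measured in 4 human and 24 mouse libraries, grouped by their labels. The authors used FastQC, TopHat, HTSeq and DESeq2 and the builds hg38 and GRCm38, per the submitters' processing notes. The human values were deposited by the authors as variance-stabilised log2 values, per the file headers, with 1 row per gene symbol, and the mouse values as rlog values on the log2 scale. Inverting the human transform gave whole counts (100% of values below 1000 counts were whole within 0.1), 20834400 to 23956007 a library; replicates differed by far more than counting noise (chi-square per degree of freedom 14.7 and 14.9). The mouse depth is unknown, since rlog values keep no counts.

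limma 3.58.1 (R 4.3.3) with a variance trend was fitted to the deposited values, over 29353 human rows (26916 constant rows left out) and, in 1 model of 4 group means, over 15916 mouse rows with a mean rlog of at least 3. Adjusted p-values are Benjamini-Hochberg over all genes of a comparison, threshold 0.05. The fits were tested on simulated data. Mouse names and coordinates come from GENCODE vM21 and RefSeq (GRCm38). Human neighbours and protein sequences were not analysed here. The 8 genes and the lists were chosen with earlier results of these data known. Named genes are the members, from each list the 2 largest falls and the largest rise past the threshold without overlap, fixed tubule factors and partners, the 5 nearest profiles and tested neighbours; KRT19, TJP1, POU3F3, the other genes among the largest drops, KCNJ2, IL27RA, Pax2, Pax8 and Setd2 were added after their values were seen. Some genes that these rules select are not reported here. Alternatives covered the replicate block, the variance trend, filters, normalisation, voom, log2(CPM + 1), library weights, removed chromosome medians, a muscle covariate and each library left out.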

Additional observations from a re-analysis of the deposited data

Results flagged for a closer look

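Of 32 groups of the mouse orthologs examined for a library far from the rest of its group, 2 had one, and chance gives about 1 in 20. In tumours labelled SETD2 KD and given VE822, Cldn2 in replicate 4 had an rlog of 6.49, while the other 4 libraries lay between 9.5 and 9.96. The same library had the lowest Tmem37 of its group (10.17, the others 11.12 to 11.61) and the highest Map2k6 (5.08, the others 4.07 to 4.44). In untreated tumours labelled SETD2 KD, Tmem37 in replicate 1 was 11.09, against 10.78 to 10.87 in the other 5.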

How the results depend on the processing

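With 2 libraries a group, the 786-O calls depended on the settings. Against 1809 genes lower and 2069 higher, the fit without a variance trend called 0 and 0, a mean of at least 5 gave 3210 lower, at least 10 counts in 2 libraries gave 3330 lower and 3219 higher, and leaving out 1 library gave 0 to 751 lower and 0 to 3820 higher, with 0 of both without either untreated library. With the replicate number as a block 2850 were lower, and of the 45 named calls only that of HNF4A was lost (adjusted p = 0.0575); same-numbered libraries deviated together (r = 0.158 over all genes, 0.511 over those with a mean of at least 5), but with 2 pairs this does not show a pairing. The fall of PALM3 was -1.84 on the log2(CPM + 1) scale and -5.27 with voom, that of MAP2K6 -2.20 and -4.54.

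In the mouse, the count of genes differing between untreated labels was 0, and 1 without the trend, 1 after quantile normalisation, 11 with library weights, 3 with only the groups compared, 1 with the muscle covariate, 2 without 5 libraries and 0 to 3 with 1 library left out. Quantile normalisation also ended the WT calls of Palm3 and A4galt and the SETD2 KD call of Palm3, which fitting only the groups compared ended too. No result reversed in any alternative among those called. The unknown mouse depth limits what can be said of Pdzk1, Map2k6 and Klhl14, which lay low.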

Other observations

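Neighbours of the orthologs were looked at for shared movement along the chromosome. Of 14 tested neighbours, limma called 3 higher (Mapre2, Il27ra and Cyb5r3) and 1 lower (Garem1) with VE822 in tumours labelled WT. There 17.2% of all tested genes rose and 17.5% fell. In those labelled SETD2 KD 2 were higher (Mapre2 and Il27ra) and 1 lower (Garem1), beside 10.6% and 11.6% of all genes. These counts are not read as a result about the neighbours. Mapre2, the nearest tested gene after Klhl14, lies 2097.6 kb from it. Il27ra, a cytokine receptor subunit that overlaps the end of Palm3 on the other strand, was 5.89 to 6.27 untreated and 6.65 to 7.04 treated with the WT label, a rise of 0.73 ± 0.10 (adjusted p = 1.07e-05), and rose by 0.76 ± 0.11 with the SETD2 KD label, above the differences of Palm3 itself. In 786-O, human IL27RA fell by 1.40 ± 0.20 (adjusted p = 0.0359), from 553 and 531 counts to 207 and 139. Map2k6 and Kcnj16 are next to each other among tested genes on mouse chromosome 11, 442.51 kb apart.

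The mouse orthologs of PAX2 and PAX8 were looked up in the tumours after their values were seen. Pax2 fell by 0.40 ± 0.07 (limma adjusted p = 0.000108) with the WT label and by 0.27 ± 0.07 (adjusted p = 0.0100) with the SETD2 KD label. Pax8 fell by 0.35 ± 0.07 (adjusted p = 0.000639) and 0.24 ± 0.08 (adjusted p = 0.0274), the latter call being lost in 6 of the 24 alternatives that left out 1 library and in 1 of the 9 others. Setd2 fell with VE822 under both labels, by 0.80 ± 0.09 and 1.09 ± 0.10 (adjusted p = 1.19e-06 and 1.08e-07).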
